A study of Danio rerio with 18 samples.

Results

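Whole zebrafish embryos that carried mutations in puma, noxa and p21 were compared 1 h after irradiation with untreated embryos of the same genotype. The comparison rests on 4 of the 18 libraries of the study, 2 per group, and all 4 come from the table deposited for the triple mutant. Of the 32057 genes in that table, 16806 reached at least 1 TPM in at least 2 of its 8 libraries and were tested. TPM is a level per gene that takes gene length into account and adds up to the same total in every library.

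The triple mutant is labelled puma -/- noxa -/- p21 -/-, and all 8 of its libraries share this genotype, untreated ones included. Embryos 30 h after fertilization received X-rays to a total of 30 Gy, at 5 Gy per min, and were sampled 1, 2 or 3 h later. The untreated libraries carry the same stage label, and their time of collection is not given, so age at collection and irradiation cannot be told apart. The p53 mutant, labelled p53 -/-, was sampled untreated and at 1 h as well, with 2 libraries each, and serves here for comparison. It was also sampled at 3 h, and p53 wild type embryos were sampled untreated and at 3 h, again with 2 libraries each. The p53 mutant libraries of 3 h enter the fit over 14 libraries, and the fit over all 18 also includes the wild type. The labels describe neither the lesions nor the number of embryos per library, and nothing in them says that paired libraries came from separate clutches, so the p-values measure the spread between libraries, which may be technical.

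Ionizing radiation breaks DNA, and the kinases that sense the breaks stabilize the transcription factor p53, which switches on genes for cell cycle arrest, repair and cell death. Puma and noxa, encoded in zebrafish by bbc3 and pmaip1, are BH3-only proteins that start apoptosis, and p21, encoded by cdkn1a, inhibits cyclin-dependent kinases. Symbols are printed as the gene name table gives them, some of them in the human style.

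At 1 h, 126 genes were higher and 330 were lower than in untreated embryos (limma, adjusted p under 0.05), which is 0.750% and 1.96% of the genes tested and 2.71% in either direction. The groups did not overlap at any of the 456 genes. Over all genes tested, both 1 h libraries lay above both untreated ones for 22.0% and below them for 20.3%. Changes are differences of mean log2(TPM + 1), a scale that understates the change of genes at low levels. The median change was 0.57 for the genes called higher, -0.62 for those called lower and 0.01 over all genes tested. Changes of at least 1 in size were found for 25 of the higher and 34 of the lower genes, and 2 of the higher and 13 of the lower genes have no symbol. These counts depend on which libraries are fitted. Dropping a 1 h or untreated library changes a group mean, not only the estimate of the spread. With 1 h replicate 1 dropped, the median change over all genes tested rose to 0.10. With 1 h replicate 2 dropped, this median fell to -0.09. More genes were called higher than lower in the former case, so the lean of the calls to falls depends on single libraries. Leaving out any 1 of the 8 moved the total by more than 1.5 times. Leaving out 1 h replicate 1 gave 1097 calls, and leaving out 1 h replicate 2 gave 1552. Leaving out untreated replicate 1 gave 39, untreated replicate 2 gave 85, and any 1 of the 4 libraries of 2 h and 3 h gave 231 to 242. With only the 4 libraries compared it was 129, and in a fit over all 18 libraries it was 15.

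**Figure D1:**
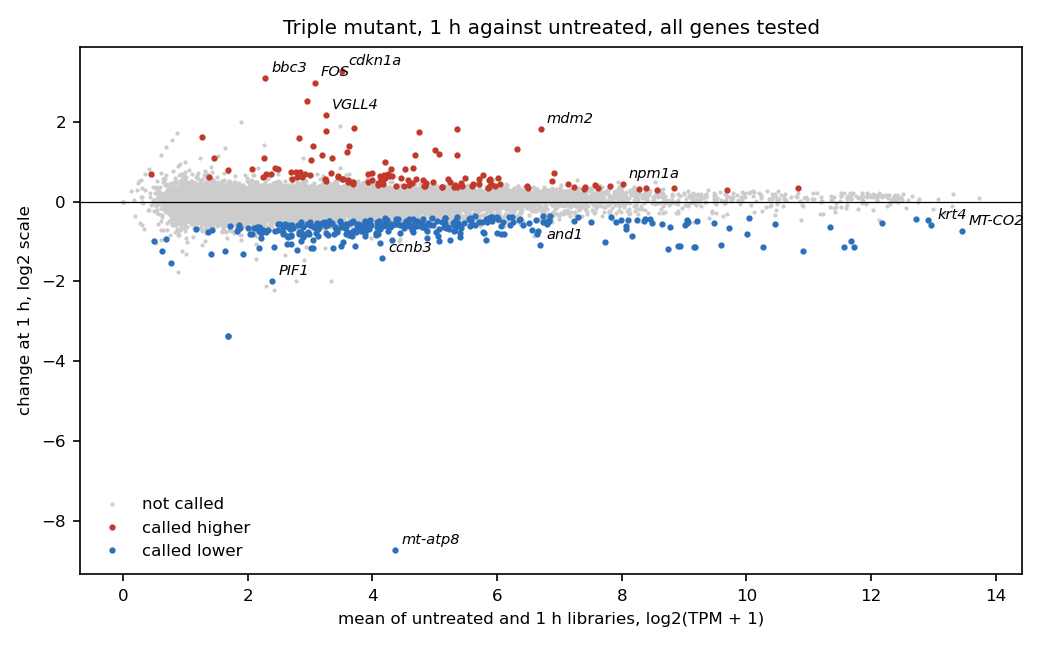
Change at 1 h (log2 scale) against the mean level of the 4 libraries compared, in log2(TPM + 1), for the 16806 genes tested, with the 126 genes called higher in red, the 330 called lower in blue and the rest in grey. The rises of cdkn1a (3.28), bbc3 (3.10) and FOS (2.98) stand at the top, and mt-atp8 lies at -8.74.

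The steepest rises included genes that p53 is known to activate. The p21 gene cdkn1a had 1.92 and 3.54 TPM in untreated libraries, against 33.9 and 34.9 TPM at 1 h, a change of 3.28 (SE 0.184, limma adjusted p = 2.35e-05). The puma gene bbc3 was at 0.58 and 0.72 TPM untreated and at 11.7 and 14.7 TPM at 1 h, a change of 3.10 (SE 0.125, limma adjusted p = 1.97e-06). Both rose from a few TPM or less to a level that no untreated library approached, although both genes carry the mutations that define the line. The noxa gene pmaip1 behaved otherwise. It was at 2.7 and 3.35 TPM untreated and at 3.82 and 2.82 TPM at 1 h, so the groups overlapped (change 0.10, SE 0.149, limma adjusted p = 0.792). Transcript level does not check these labels, since the lesions are not described and mutated genes can still be transcribed.

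The ubiquitin ligase gene mdm2 encodes the protein that marks p53 for degradation, and p53 in turn activates it. It stood at 54.8 and 53.3 TPM untreated and at 204 and 186 TPM at 1 h (change 1.83, SE 0.0861, limma adjusted p = 5.88e-06), with both 1 h libraries more than 3 times above the untreated ones. Against the same untreated libraries, the changes of mdm2 were 2.30 at 2 h and 3.80 at 3 h. In the fit over all 18 libraries, its 1 h change was not called (SE 0.437, limma adjusted p = 0.557).

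**Figure D2:**
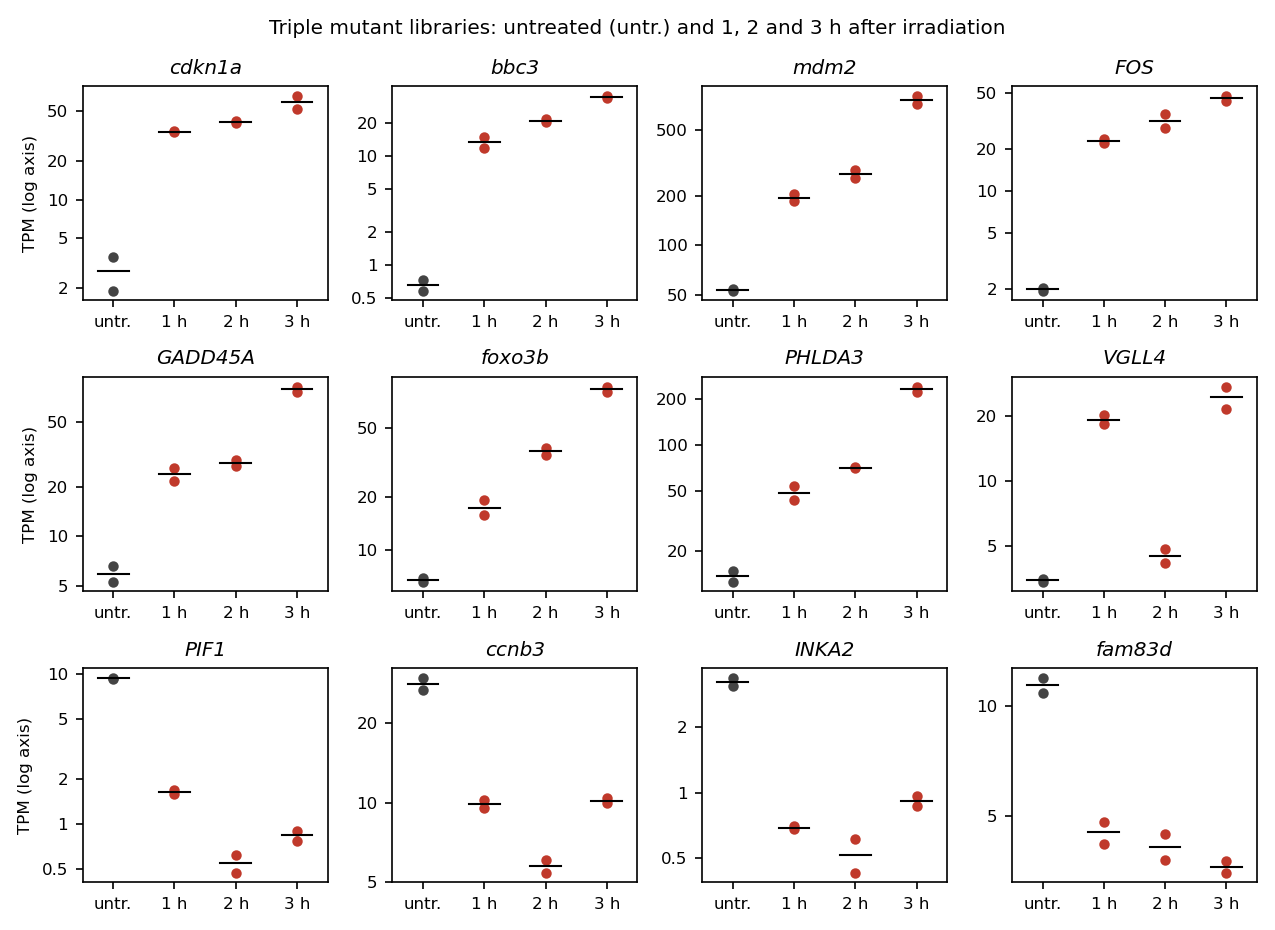
TPM on a log axis for 12 genes in the 8 triple mutant libraries, with 1 point per library and a bar at the mean of each group of 2. Untreated libraries are grey and irradiated ones are red. All 12 were picked from the called genes, none of which had overlapping groups, so their 1 h points lie outside the untreated pair by choice.

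Other genes on the list of p53 targets, with arrest, signalling or repair roles, rose together with these. GADD45A (ENSDARG00000043581), a stress protein that restrains the cell cycle, was at 5.30 and 6.57 TPM untreated and at 26.1 and 21.7 TPM at 1 h (change 1.84). PHLDA3, which holds back the kinase Akt at the membrane, was at 12.6 and 14.7 TPM untreated and at 53.6 and 43.6 TPM at 1 h (change 1.76, SE 0.113, limma adjusted p = 5.09e-05). Neither gene had overlapping groups. The sestrin gene sesn3, whose product acts against oxidative stress and growth signals, went from 12.4 and 11.8 to 24.7 and 25.3 TPM (change 0.99). DDIT4, a brake on the growth kinase mTOR, went from 22.2 and 20.0 to 48.1 and 51.0 TPM (change 1.2), and the exonuclease gene EXO5 from 5.87 and 6.01 to 13.5 and 14.3 TPM (change 1.1). In each of these 3 genes, both 1 h libraries lay above both untreated ones.

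Over the list of p53 targets, 16 of 53 tested members were higher and 1 was lower, against 0.750% and 1.96% of all genes. The list was written with earlier results of these data known, so the excess over all genes is not independent of them. The median change of the list was 0.16, beside 0.01 for all genes. The lower member was PERP, a desmosome protein gene that the epidermis also uses. It was at 132 and 126 TPM untreated and at 82.7 and 99.0 TPM at 1 h (change -0.51, limma adjusted p = 0.0316). Its call was lost without either untreated library and without any 1 of the 4 libraries of 2 h and 3 h. It was also lost with only the 4 libraries compared. The number of members called higher ranged from 10 without untreated replicate 1 to 18 without 1 h replicate 2, and was 5 in the fit over all 18 libraries. Among members that did not pass the test were BAX, the pore-forming death protein gene, with 28.0 and 30.3 TPM untreated and 36.6 and 37.3 TPM at 1 h (limma adjusted p = 0.0582). The DNA damage sensor genes DDB2 and XPC had changes of 0.35 and 0.28 (limma adjusted p = 0.0876 and 0.221).

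Of the genes named in the title of the study besides cdkn1a, foxo3b was called at 1 h and the other two were not. The gene foxo3b encodes a forkhead transcription factor that restrains growth. It was at 6.61 and 6.98 TPM untreated and at 15.8 and 19.2 TPM at 1 h (change 1.24, SE 0.110, limma adjusted p = 0.000486), and at 2 h it stood at 34.9 and 38.5 TPM, a further step of 1.03 (limma adjusted p = 0.00499). The step from 1 h to 2 h was called for 733 genes, or 4.36%. In the fit over all 18 libraries, the 1 h change of foxo3b was not called (SE 0.551). CCNG1, which encodes cyclin G1, was at 730 and 927 TPM untreated and at 992 and 803 TPM at 1 h, with overlapping groups (change 0.12, SE 0.126, limma adjusted p = 0.686). FBXW7, the substrate receptor of a ubiquitin ligase that degrades cyclin E, was at 14.8 and 12.8 TPM untreated and at 11.7 and 15.18 TPM at 1 h, again with overlap (change -0.04, SE 0.127, limma adjusted p = 0.919). At 3 h, against the same untreated libraries, the changes of CCNG1 and FBXW7 were 1.46 and 1.07, and that of pmaip1 was 0.80.

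In the list of arrest genes and inhibitors of cyclin-dependent kinases, 8 of 31 were higher and 1 was lower. Of all genes, 0.750% were higher and 1.96% lower, and the median change of the list was 0.12. Beside cdkn1a, GADD45A and foxo3b, the higher members included GADD45B (ENSDARG00000013576) and GADD45G (ENSDARG00000019417), relatives of GADD45A, with changes of 1.05 and 0.83. CDKN1B (ENSDARG00000029018), the gene for the inhibitor p27, went from 16.6 and 17.4 to 25.3 and 26.6 TPM (change 0.59, limma adjusted p = 0.00877). RBL2, a retinoblastoma relative that represses cell cycle genes, and the antiproliferative gene BTG2 had changes of 0.62 and 0.55. The lower member was CCNG2, the gene for cyclin G2, with a change of -0.40. Its call was lost without any 1 of the 4 libraries of 2 h and 3 h. It was also lost with only the 4 libraries compared and in the fit over all 18 libraries. The number called higher was 3 without untreated replicate 1, 5 without untreated replicate 2 and 2 in the fit over all 18 libraries. In the list of cell death genes, 1 of 36 was called, the mutated gene bbc3, against 2.71% of all genes in either direction. The median change of that list was -0.05.

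Some of the largest rises were outside the p53 list. The AP-1 subunit gene FOS, an immediate early gene, was at 1.95 and 2.03 TPM untreated and at 22.0 and 23.4 TPM at 1 h (change 2.98, SE 0.118, limma adjusted p = 1.97e-06). The gene si:dkey-204l11.1, which has no assigned role here, went from 1.99 and 2.46 to 17.3 and 18.0 TPM (change 2.54). Both continued upward, with 47.5 and 43.4 TPM for FOS and 61.8 and 56.4 TPM for si:dkey-204l11.1 at 3 h. The call of FOS held in all 19 alternatives within the triple mutant table, but in the fit over all 18 libraries its adjusted p was 1. The p53 mutant libraries had 7.08 and 92.9 TPM untreated and 4.83 and 62.6 TPM at 1 h, so its replicates differed widely there.

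Of 40 immediate early genes tested, 4 were higher, FOS among them, and 1 was lower, against 0.750% and 1.96% of all genes. The median change was 0.01. The proliferation factor gene MYC (ENSDARG00000007241) went from 28.3 and 30.2 to 41.3 and 47.1 TPM, and IER5, a heat shock factor regulator, from 75.8 and 77.6 to 96.5 and 105 TPM. KLF4, a transcription factor of differentiating epithelia, went the opposite way, from 5.81 and 5.75 to 1.63 and 2.45 TPM (change -1.17, SE 0.155, limma adjusted p = 0.0066). The number called higher was 1 without untreated replicate 1, 2 without untreated replicate 2 and 0 in the fit over all 18 libraries.

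VGLL4 (ENSDARG00000103730), a cofactor that restrains the Hippo pathway factors of the TEAD family, was also among the largest rises. It was at 3.51 and 3.42 TPM untreated and at 18.3 and 20.1 TPM at 1 h (change 2.18, SE 0.131, limma adjusted p = 3.65e-05). At 2 h it was at 4.19 and 4.84 TPM, a step of -1.87 from 1 h (limma adjusted p = 0.000802), and at 3 h at 21.7 and 27.3 TPM. The 2 h libraries lay near the untreated pair, and the 1 h and 3 h libraries lay far above it. In the p53 mutant it was at 14.7 and 22.8 TPM untreated and at 6.73 and 21.1 TPM at 1 h, and in the fit over all 18 libraries its 1 h adjusted p was 0.123.

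Few developmental signalling genes were called, as among all genes (0.750% higher and 1.96% lower). Of 43 Notch genes and targets, 1 was lower, ATOH1, a factor of hair cell and neuron formation, from 23.2 and 18.7 to 10.2 and 13.4 TPM (change -0.78). Of 43 feedback targets of Fgf, Wnt, Bmp and Hedgehog signalling, 2 were lower, the homeobox genes msx1b and msx2b, with changes of -0.52 and -0.42. Both lists lost these calls when either untreated library was left out. Both had more lower calls without 1 h replicate 2, as did all genes.

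Other genes among the 15 largest rises have varied roles. The regulatory subunit gene pik3r3a of phosphatidylinositol 3-kinase went from 20.9 and 20.7 to 74.9 and 76.9 TPM (change 1.82), and the small GTPase gene RASL11B from 4.2 and 4.05 to 17.5 and 15.7 TPM (change 1.78). The gene bmb (brambleberry), which acts in the joining of nuclei in the early zebrafish embryo, went from 2.82 and 3.26 to 10.8 and 11.7 TPM (change 1.6). The sestrin gene sesn4 went from 6.17 and 6.92 to 18.4 and 19.6 TPM (change 1.41). The exonuclease gene isg20, known from the interferon response, went from 46.6 and 52.8 to 132 and 120 TPM (change 1.33). In all 5 genes the 1 h libraries were more than 2 times the untreated ones. Of the 13 interferon-type genes tested, 2 were higher, isg20 and isg15, against 0.750% of all genes. At 1 h, isg15 stood at only 0.77 and 0.71 TPM. The call of isg15 was lost in 11 of 18 alternatives within the table, and the count was 1 without either untreated library. Also among the 15 largest rises were si:ch211-8i17.2, at 0 and 0.86 TPM untreated and at 3.64 and 2.86 TPM at 1 h, and si:ch1073-170h8.3, at 3.78 and 4.36 TPM untreated and at 11.5 and 13.2 TPM at 1 h, both without a role assigned here. Of these 15, 14 kept their call in each alternative within the triple mutant table.

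The deepest fall with a level above 0 at 1 h was that of PIF1, a helicase that unwinds DNA and acts in replication and at telomeres. It was at 9.35 and 9.51 TPM untreated and at 1.57 and 1.67 TPM at 1 h (change -1.99, SE 0.129, limma adjusted p = 5.09e-05), and its 2 h libraries had 0.62 and 0.47 TPM. The p53 mutant libraries had 8.70 and 7.62 TPM untreated and 2.90 and 2.29 TPM at 1 h, a change of -1.35 (SE 0.164, limma adjusted p = 0.23). The groups of the p53 mutant therefore did not overlap either, while the change did not pass the test there. The share of all genes without overlap was not computed for that mutant, whose median change over all genes was -0.16. The difference between the responses of the 2 genotypes was -0.64 (SE 0.232, limma adjusted p = 1).

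Several other large falls were transcripts of mitosis. The cyclin gene ccnb3 was at 26.7 and 29.5 TPM untreated and at 10.3 and 9.56 TPM at 1 h (change -1.41, SE 0.107, limma adjusted p = 0.000137). The spindle protein gene fam83d was at 10.8 and 11.9 TPM untreated and at 4.19 and 4.81 TPM at 1 h (change -1.17, SE 0.127, limma adjusted p = 0.00228). PRC1 (ENSDARG00000005993), which bundles microtubules of the central spindle, went from 14.9 and 16.2 to 6.35 and 7.05 TPM (change -1.11). In all of these the 1 h level was under 0.5 of the untreated level. The kinase gene aurka, which matures the spindle poles, went from 45.8 and 46.4 to 20.9 and 25.1 TPM (change -0.98), and plk1, a kinase of mitotic entry, from 72.2 and 70.7 to 37.7 and 44.5 TPM (change -0.79). CCNB1, the main mitotic cyclin gene, went from 90.01 and 85.0 to 46.7 and 52.3 TPM (change -0.81), and CDC20, whose product turns on the ligase of anaphase, from 43.7 and 45.2 to 27.24 and 28.9 TPM (change -0.65).

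Over the mitosis list, 19 of 84 tested members were lower and 0 were higher, against 1.96% and 0.750% of all genes. The median change of the list was -0.23. Both 1 h libraries lay below both untreated ones for 47 members and above them for 8, against 20.3% and 22.0% of all genes. The number called lower was 4 without untreated replicate 1, 9 without untreated replicate 2 and 37 without 1 h replicate 2, and it was 2 in the fit over all 18 libraries. The list had a median change of -0.30 in the p53 mutant, beside -0.16 for all genes. Among the falls outside the list, INKA2, an inhibitor of the kinase PAK4, went from 3.07 and 3.35 to 0.70 and 0.68 TPM (change -1.32), and PARPBP, which restrains homologous recombination, from 9.56 and 9.42 to 3.22 and 3.94 TPM (change -1.20). The kinetochore gene oip5 went from 14.6 and 14.3 to 6.86 and 5.11 TPM (change -1.16). The genes zgc:173552 (ENSDARG00000112175) and si:dkey-108k21.24 had changes of -1.31 and -1.23, and zgc:165555 was at 1.04 and 1.71 TPM untreated and listed at 0 in both 1 h libraries. Of the 15 largest falls, 7 kept their call in each alternative within the triple mutant table in which they were tested. They were PIF1, ccnb3, INKA2, fam83d and, listed at 0 in both 1 h libraries, mt-atp8 and 2 copies of U2 with the same values. Of the 19 alternatives, INKA2 was tested in 16 and mt-atp8 in 18. In whole embryos, fewer cells of a type and less RNA per cell cannot be told apart.

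Of 72 tested transcripts of DNA replication, 4 were higher and 0 were lower, against 0.750% and 1.96% of all genes. The median change was 0.14. The higher members were CCNE2, a cyclin gene of S phase entry, the histone chaperone gene ASF1B (ENSDARG00000101037), slbp, whose product binds histone mRNA, and PCNA, the sliding clamp of DNA polymerases. CCNE2 went from 37.95 and 33.0 to 49.7 and 58.6 TPM, and PCNA from 750 and 746 to 879 and 952 TPM (change 0.29, limma adjusted p = 0.0477). The count was 0 without either untreated library and 13 without 1 h replicate 1. In the list of break repair and checkpoint genes, 2 of 61 were higher and 1 was lower, against 0.750% and 1.96% of all genes. The higher ones were EXO5 and the resection nuclease gene exo1, and the lower one was PIF1. The number higher was 1 without either untreated library and 4 without 1 h replicate 1, and the call of exo1 was lost in 12 of 19 alternatives within the table. None of the 45 genes of excision, mismatch and bypass repair was called in this fit, while 7 were higher at an unadjusted p under 0.05, against 8.41% of all genes, and ERCC2, a helicase subunit of that repair, had a change of 0.48 (limma adjusted p = 0.0558).

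**Figure D3:**
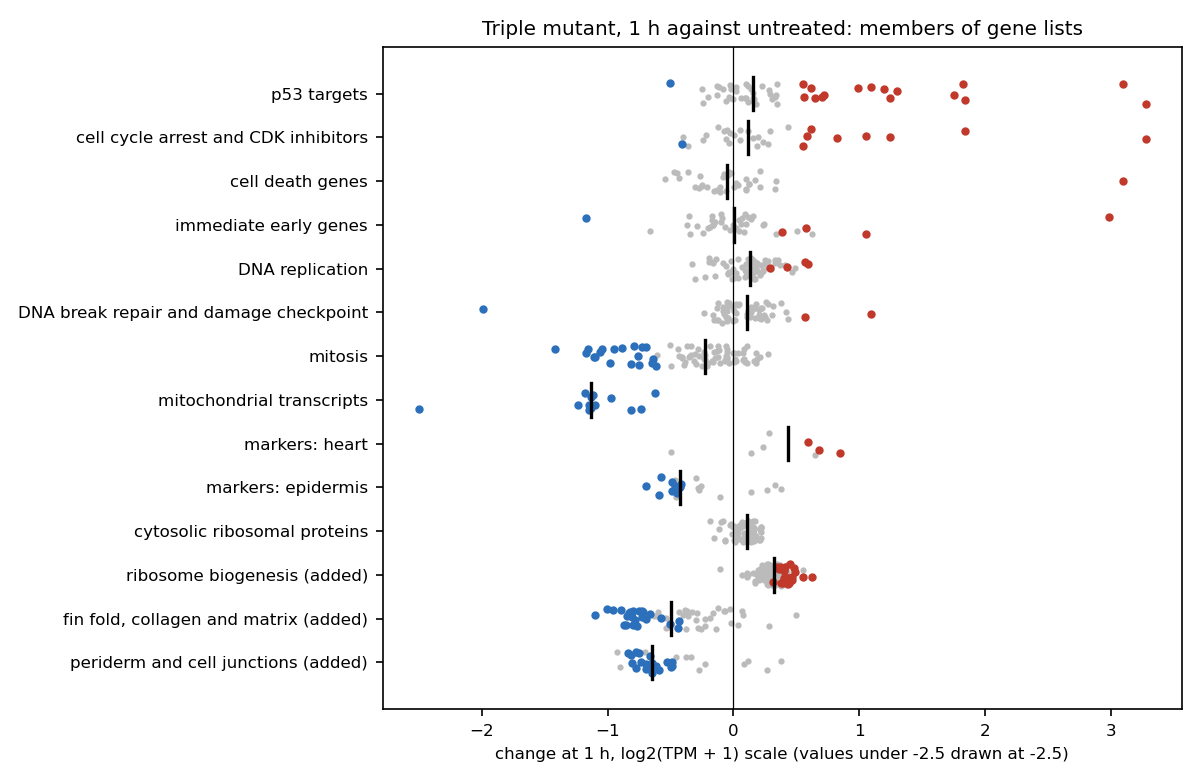
Change at 1 h on the log2(TPM + 1) scale for the tested members of 14 gene lists, with 1 point per gene, members called higher in red, called lower in blue and the rest in grey, and a black bar at each list's median. The bars of the mitochondrial transcripts (-1.13) and of mitosis (-0.23) lie left of 0, and that of ribosome biogenesis (0.32) lies right of it. The 3 lists marked as added were written after values had been seen.

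All 13 tested protein-coding transcripts of the mitochondrial genome were lower at 1 h, against 1.96% of all genes. Their median change was -1.13. They encode subunits of the respiratory chain and of the ATP synthase. Together they made up 4.00% and 3.57% of all TPM in untreated embryos. This share was 2.35% and 1.70% after 1 h, with 1.15% and 1.48% after 2 h, then 2.37% and 2.43% after 3 h. It was 1.67% and 5.21% in untreated p53 mutant libraries and 2.66% and 8.06% in untreated p53 wild type ones. In the p53 mutant at 1 h it was 1.54% and 5.78%, and the median change of the 13 transcripts was 0.00, beside -0.16 for all genes. The cytochrome oxidase subunit transcript MT-CO1 went from 5081 and 4018 to 2542 and 1642 TPM (change -1.14, SE 0.196, limma adjusted p = 0.0184). The number called was 1 without untreated replicate 1, 1 with weights per library, 2 without a filter on low values and 1 in the fit over all 18 libraries. When TPM were rescaled without them, 521 genes were called, 108 higher and 413 lower.

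The ATP synthase transcript mt-atp8 stood apart from the other 12. It was at 494 and 367 TPM untreated, was listed at 0 in both 1 h and both 2 h libraries, and was at 530 and 560 TPM at 3 h. The neighbouring transcript MT-ATP6 was at 1428 and 1104 TPM at 1 h. The p53 mutant had between 745 and 6228 TPM of mt-atp8 in its untreated and 1 h libraries. A listing of 0 in TPM can be a failed estimate of the quantification, and no fold is given. Only 3 genes were listed at 0 in both 1 h libraries with at least 5 TPM in both untreated ones, mt-atp8 and 2 copies of the spliceosomal RNA gene U2 (ENSDARG00000111709 and ENSDARG00000115186), and 0 genes showed the reverse. The 2 copies of U2 carry the same values in each library, 9.01 and 9.75 TPM untreated, so reads shared between near-identical copies cannot be told apart.

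**Figure D4:**
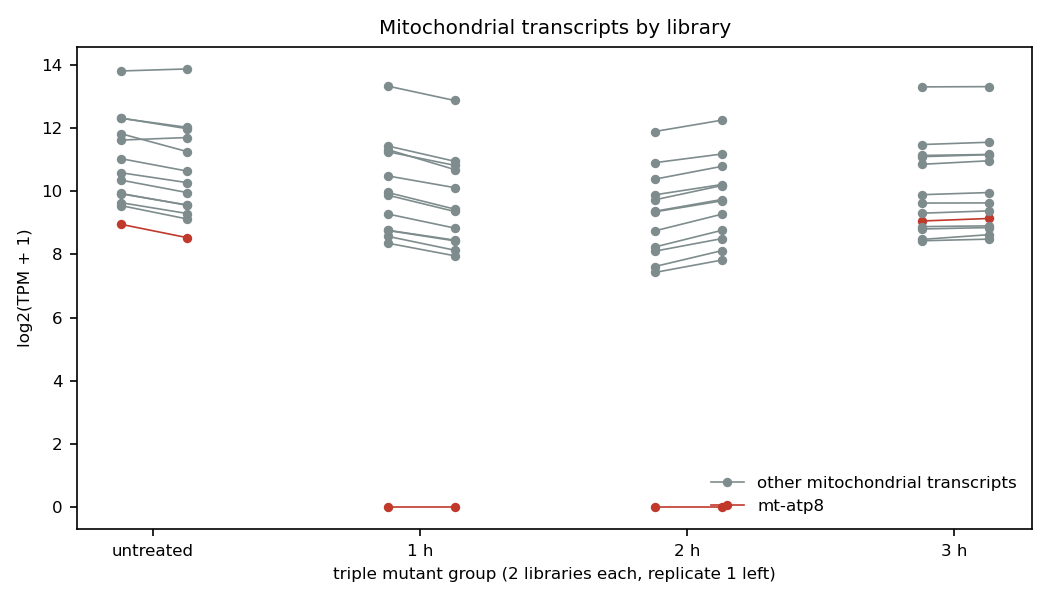
Levels of the 13 mitochondrial transcripts, in log2(TPM + 1), in the 8 triple mutant libraries, with replicate 1 to the left in each group and a line joining the 2 replicates. The other transcripts (grey) lie lower at 1 h and 2 h than untreated, and mt-atp8 (red) is at 0 in those 4 libraries and between 367 and 560 TPM in the others.

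Of 21 tested epidermal markers, 9 were lower and 0 were higher, against 1.96% and 0.750% of all genes. The markers had a median change of -0.42 and a summed level of 39474 and 39997 TPM untreated against 29868 and 28544 TPM at 1 h. At an unadjusted p under 0.05, 2 of them were higher and 16 lower, and the changes ran from -0.69 to 0.38. The keratin gene krt4, one of the most abundant transcripts of the embryo, went from 10099 and 9569 to 6142 and 6950 TPM (change -0.59, SE 0.0724, limma adjusted p = 0.00433). TP63, the transcription factor of basal epidermis, went from 37.5 and 34.3 to 21.5 and 26.3 TPM (change -0.57, limma adjusted p = 0.0329). The number called lower was 0 without untreated replicate 1, 3 without untreated replicate 2, and 0 in the fit over all 18 libraries. The epidermal markers had a median change of 0.00 in the p53 mutant, beside -0.16 for all genes. In that mutant, krt4 was at 9156 and 9648 TPM untreated and at 9893 and 9061 TPM at 1 h. The response difference of krt4 was -0.60 (SE 0.149, limma adjusted p = 1).

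Of 8 tested heart markers, 3 were higher and 0 were lower, against 0.750% and 1.96% of all genes. At an unadjusted p under 0.05, 1 was lower (change -0.50). Their summed level was 126 and 125 TPM untreated and 187 and 206 TPM at 1 h. TNNT2 (ENSDARG00000020610), the cardiac troponin T gene, went from 17.8 and 17.5 to 30.3 and 35.0 TPM (change 0.85, SE 0.101, limma adjusted p = 0.0037), and the myosin light chain genes cmlc1 and MYL7 had changes of 0.68 and 0.59. None of the 21 skeletal muscle, 24 neuron, 15 blood, 17 lens, 8 myeloid, 9 notochord and 9 yolk and liver markers was called. At an unadjusted p under 0.05, 7 lens markers were lower, against 9.79% of all genes, and each of the other 6 lists had 0 to 3 members higher and 0 to 3 lower. Without 1 h replicate 2, some lens and skeletal muscle markers were called lower, and without 1 h replicate 1, some neuron markers were called higher. More of all genes were called in these directions as well. The hatching gland had 2 of 5 markers lower, AGR2 and the protease gene ctslb (changes -0.47 and -0.45), and pigment and neural crest cells 1 of 14, the pteridine synthesis gene gch2 (-0.44). Endothelium had 1 of 10 higher, clec14a (0.63), and neural progenitors had 1 of 20 higher, PCNA, and 1 lower, the transcription factor gene ZIC2 (ENSDARG00000037178, -0.39). These calls of hatching gland, pigment, endothelial and neural progenitor markers were all lost without either untreated library. Markers of all these tissues were present, with summed levels at 1 h from 55.4 and 66.7 TPM for endothelium to 29868 and 28544 TPM for epidermis. The heart count was 0 without untreated replicate 1, 1 without untreated replicate 2 and 4 without 1 h replicate 1.

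Several groups of genes with roles in stress or in basic cell functions showed 0 calls with limma, against 2.71% of all genes. These were heat shock genes (41 tested, median change 0.22), hypoxia and glycolysis genes (57, median 0.04), inflammation and NF-kB genes (30, median -0.08), circadian genes (31, median 0.08), splicing factors (60, median 0.21) and cytosolic ribosomal proteins (79, median 0.11). At an unadjusted p under 0.05, 16 heat shock genes, 18 splicing factors and 21 ribosomal protein genes were higher and 0 of any of the 3 lists lower, against 8.41% and 9.79% of all genes, and in the other 3 lists 2 to 8 members were higher and 0 or 1 lower. The chaperone gene hsp90aa1.1 was at 107 and 116 TPM untreated and at 140 and 161 TPM at 1 h (limma adjusted p = 0.0542). For 28 heat shock genes and 32 splicing factors, both 1 h libraries lay above both untreated ones, and for 0 members of either list did both lie below, against 22.0% and 20.3% of all genes. Without 1 h replicate 1, which has the lowest median-of-ratios scaling factor of the 4 libraries (0.876 against 0.938 to 1.03), 16 heat shock genes and 23 splicing factors were called higher. Some hypoxia and glycolysis genes were also called higher without it. Without 1 h replicate 2, some ribosomal protein genes were called higher and some hypoxia and glycolysis genes lower. In each of these directions, more of all genes were called as well. Of 47 genes of the integrated stress response, 2 were called higher, against 0.750% of all genes. They were DDIT4 and nupr1a, a chromatin-linked stress protein gene. The call of nupr1a was lost in 14 of 19 alternatives within the table, and the number higher was 1 without either untreated library. Without 1 h replicate 2, more genes were called lower in this list, as over all genes. Of 36 antioxidant genes, 1 was called lower, the quinone reductase gene NQO1 (change -0.36), against 1.96% of all genes. That call was lost in 12 of 19 alternatives within the table, including those without either untreated library.

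The response at 1 h was set against that of the p53 mutant in a fit over the 14 libraries of both tables. In the p53 mutant, 0 genes were called at 1 h with limma, while 252 had an unadjusted p under 0.05. Same-numbered untreated and 1 h libraries of the p53 mutant deviated together (correlation 0.825), and this fit had no term for replicate. A fit with such a term was not run for this change, so 0 calls do not show that no gene responded. The 1 h replicates of the p53 mutant differed more from each other (correlation across genes 0.902) than those of the triple mutant (0.989). Genes are not independent replicates. The difference between responses was called for 6 of 18134 genes, or 0.0331%, and 435 had an unadjusted p under 0.05. Leaving out either 1 h or either untreated library of the triple mutant, or p53 mutant untreated replicate 2, gave 0 calls. Leaving out p53 mutant 1 h replicate 1 gave 12, and leaving out its replicate 2 gave 4445. The median difference over all genes was 0.17, and 0.04 with median-of-ratios scaling, so single differences are read against these medians.

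Of the 6 genes, 4 rose more in the triple mutant. For bbc3 the difference was 2.97 (SE 0.279, limma adjusted p = 0.00649), with 0.40 and 0.67 TPM untreated and 0.58 and 0.78 TPM at 1 h in the p53 mutant. For si:dkey-204l11.1 it was 2.65 (SE 0.218, limma adjusted p = 0.00649), for bmb 2.13 (SE 0.236, limma adjusted p = 0.0183) and for PHLDA3 1.81 (SE 0.195, limma adjusted p = 0.0165). Of these 3, si:dkey-204l11.1 and bmb were below their untreated pair in the p53 mutant at 1 h, and PHLDA3 overlapped with it, at 8.46 and 8.51 TPM untreated and at 7.70 and 8.57 TPM at 1 h. The other 2 were the copies of U2, which are listed at 0 in all p53 mutant libraries, so their difference depends on the pseudocount. Other large rises did not pass this test. For cdkn1a the p53 mutant libraries had 3.14 and 8.78 TPM untreated and 1.15 and 5.95 TPM at 1 h (difference 4.00, SE 0.743, limma adjusted p = 0.567), and for mdm2 they had 25.9 and 52.2 TPM untreated and 18.9 and 59.9 TPM at 1 h (difference 1.95, SE 0.636, limma adjusted p = 1).

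**Figure D5:**
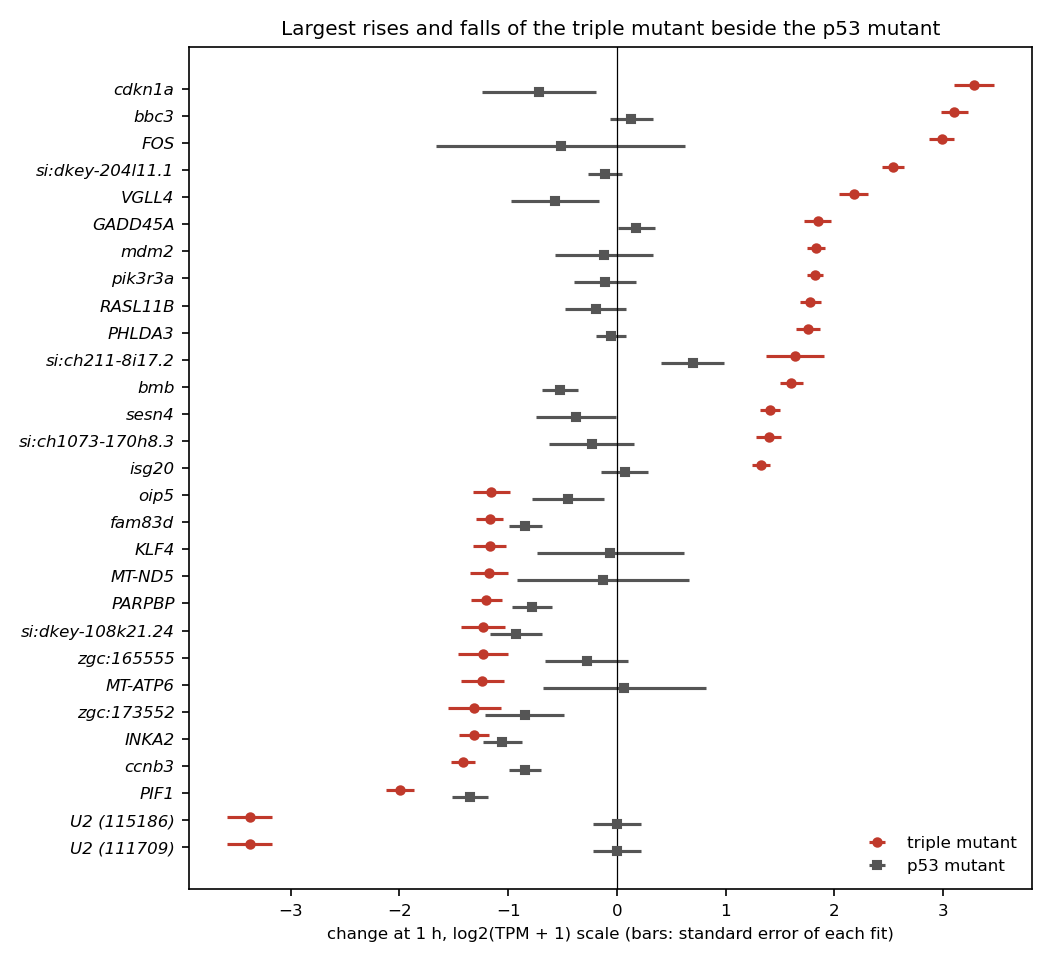
Change at 1 h on the log2(TPM + 1) scale for the largest rises and falls of the triple mutant (red circles) beside the same genes in the p53 mutant (grey squares), with bars for the standard error of each fit. Changes of bbc3 are 3.10 and 0.13 and those of bmb 1.6 and -0.52, and PIF1 (-1.99 against -1.35) and ccnb3 (-1.41 against -0.85) lie below 0 in both.

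In the p53 mutant, ccnb3 was at 31.9 and 26.2 TPM untreated and at 16.5 and 14.7 TPM at 1 h (change -0.85, limma adjusted p = 0.64), and fam83d at 9.61 and 9.58 TPM untreated and at 5.15 and 4.69 TPM at 1 h (change -0.84). INKA2 was at 3.43 and 3.68 TPM untreated and at 0.87 and 1.57 TPM at 1 h (change -1.05). None of these groups overlapped, and none of the changes was called in the p53 mutant. The share of all genes without overlap was not computed for that mutant, so non-overlap there has no background to be read against. The differences between genotypes did not pass the test either (limma adjusted p = 1 for each of the 3). For the 126 genes called higher in the triple mutant, the median change in the p53 mutant was -0.12, beside -0.16 for all genes. For the 330 called lower it was -0.17.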

How the data were processed

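RNA was measured in poly(A)-selected libraries of whole embryos, per the labels' protocols. The authors deposited TPM values, 1 table per genotype; the submitters' processing notes list RSEM 1.3.3, DESeq2 1.42.1, R 4.3.3, HTSeq 0.12.3, the build GRCz11 and STAR 2.7.3a, with no roles, and the annotation release is not given in the sources used here. Read lengths differed between sequencing centres and are not given per library. TPM hold no read counts, so depth is unknown and no counting interval was computed.

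Values were taken as log2(TPM + 1), and a gene was kept if 2 or more libraries reached 1 TPM. Limma 3.58.1 in R 4.3.3, with a trended prior, was fitted to the 8 triple mutant libraries (4 residual and 5.62 prior degrees of freedom), and to the 14 libraries of both mutants for the difference between responses. Tests were two-sided with Benjamini-Hochberg adjustment over all genes tested. The script was tested on simulated data with independent noise per library, of the size that the fit had estimated. No offset shared by the genes of a library was simulated. Only genes with a mean log2(TPM + 1) above log2(6) were shifted, so recovery at lower levels was not tested. The comparison at 1 h recovered 99 of 100 shifts of 1 and 100 of 100 shifts of 2 on the log2 scale, with 11 unshifted genes called. The difference between responses recovered 6 and 59 of 100, so a difference that did not pass the test can still be present. Symbols were matched for 28988 of 32057 genes.

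The comparison, the gene lists and the members were chosen with earlier results of these data known, and 3 lists were added after values had been seen. Named genes are the 15 largest rises and falls called with a symbol, the genes of the study's title and mutations, mdm2 and PIF1 (1 further gene of the rule is not reported here), up to 5 called members per list and up to 2 members of a list with none called. Other list members were chosen after their values were seen. Sequences and coordinates were not used here.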

Additional observations from a re-analysis of the deposited data

Results flagged for a closer look

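The response at 1 h differed between the triple mutant and the p53 mutant for 6 genes (limma interaction term, adjusted p under 0.05). The differences were 2.97 for bbc3, 2.65 for si:dkey-204l11.1, 2.13 for bmb and 1.81 for PHLDA3 on the log2(TPM + 1) scale. For the 2 copies of U2 (ENSDARG00000111709 and ENSDARG00000115186) it was -3.37 each, from libraries listed at 0. Without triple mutant 1 h replicate 1, 1 h replicate 2, untreated replicate 1 or untreated replicate 2, or without p53 mutant untreated replicate 2, 0 genes were called, with 373, 237, 250, 245 and 442 at an unadjusted p under 0.05.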

How the results depend on the processing

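The total of 456 genes called at 1 h (126 higher, 330 lower) was 157 (48 and 109) without a filter on low values, 715 (212 and 503) with median-of-ratios scaling, 779 (210 and 569) with quantile normalization, 197 (52 and 145) with a constant prior, 87 (30 and 57) with array weights, 129 (35 and 94) with only the 4 libraries compared and 15 (8 and 7) with all 18 libraries. With at least 5 TPM in 2 libraries, 209 were higher. Leaving out single libraries gave totals from 39 to 1552, with 23 to 670 higher and 16 to 1272 lower.

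The 6 differences between genotypes (4 higher, 2 lower) became 11 (8 higher) with median-of-ratios scaling, 1 (0 higher, 1 lower) with array weights, 2 higher with a replicate block, 4 lower with a pseudocount of 0.1 TPM and 1 lower with all 18 libraries. Leaving out single libraries gave totals from 0 to 4445, with 0 to 4205 higher and 0 to 240 lower, the top values without p53 mutant 1 h replicate 2.

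With a replicate block, 383 genes were called at 1 h and 5 differed between genotypes. Same-numbered untreated and 1 h libraries deviated with a correlation of -0.087 (triple mutant) and 0.825 (p53 mutant), and each genotype has only 2 such pairs. The labels do not say what the numbers mark, and the samples were not treated as paired. Of changes that were not called, those of CCNG1 (-0.055 to 0.29), pmaip1 (-0.071 to 0.26) and FBXW7 (-0.21 to 0.14) turned their sign without 1 h replicate 1 or without untreated replicate 1, and that of srsf10a (-4.32 to 0.35) without 1 h replicate 1. Of 132 called genes under the naming rule, 118 lost their call with all 18 libraries. The cause was not tested.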

Other observations

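In a list of ribosome production genes written after values had been seen, 25 of 128 tested were higher and 0 lower at 1 h. Of all genes, 0.750% were higher and 1.96% lower. The list had a median change of 0.32 at 1 h and 0.10 at 3 h. The nucleolar chaperone gene npm1a was at 210 and 231 TPM untreated and at 294 and 309 TPM at 1 h, and naf1, a factor for H/ACA small nucleolar particles, at 6.84 and 8.73 TPM untreated and at 11.6 and 13.5 TPM at 1 h. The count was 0 without either untreated library, 61 without 1 h replicate 1, 3 to 5 without any 1 of the 4 libraries of 2 h and 3 h, and 0 in the fit over all 18 libraries. In the p53 mutant the median change was -0.15, beside -0.16 for all genes.

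Another list, of fin fold and extracellular matrix genes, was also written after values had been seen. Of 58 tested, 24 were lower and 0 higher, against 1.96% and 0.750% of all genes. The list had a median change of -0.50 and a highest of 0.49. The actinodin gene and1, which builds the fibres of the fin fold, was at 159 and 142 TPM untreated and at 62.8 and 77.4 TPM at 1 h (change -1.1, SE 0.109, limma adjusted p = 0.00128), and the collagen gene col1a1a at 315 and 282 TPM untreated and at 122.99 and 179 TPM at 1 h. The count was 2 without untreated replicate 1, 7 without untreated replicate 2, 40 without 1 h replicate 2 and 0 in the fit over all 18 libraries. The p53 mutant had 164 and 215 TPM of and1 untreated and 167 and 222 TPM at 1 h. The list had a median change of -0.35 there, beside -0.16 for all genes.

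Of 31 tested genes of the periderm and of cell junctions, chosen in the same way, 19 were lower and 0 were higher. Of all genes, 1.96% were lower and 0.750% higher. The list had a median change of -0.65, and in the p53 mutant -0.17, beside -0.16 for all genes. At an unadjusted p under 0.05, 1 member was higher and 26 were lower, against 8.41% and 9.79% of all genes. Its highest change, 0.38, was also the highest of the epidermal markers, so the lists may share members. The falls of both lists are therefore not separate results. The desmosome and cornified envelope genes PPL and evpla had changes of -0.77 and -0.84. The count was 0 without untreated replicate 1, 5 without untreated replicate 2, 10 without any 1 of the 4 libraries of 2 h and 3 h, and 0 in the fit over all 18 libraries.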
